A study of Mus musculus with 22 samples.

Results

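Sox10, S100b, Ngfr, Elavl4, Prph, Tubb3 and Stmn2, 7 genes of Schwann cells and of peripheral neurons, were followed in whole mouse pancreas. They were chosen by symbol among the 21450 symbols of a count table, and they hold 11 of its 30146 probes. Sox10, Ngfr and Prph have 1 probe each, and S100b, Elavl4, Tubb3 and Stmn2 have 2 probes each. The genes were picked with their difference between newborn and adult pancreas already in view. That difference is therefore given as a description, with no test.

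The pancreas is reached by sympathetic, parasympathetic and sensory axons, and small ganglia of nerve cells lie within the organ. Schwann cells, which arise from the neural crest, ensheathe these axons and also wrap the islets. The nerve supply grows into the pancreas before birth and is remodelled afterwards. In the glial group, Sox10 is the transcription factor that specifies the Schwann cell lineage, S100b is a calcium-binding protein of Schwann cells and other glia, and Ngfr is the low-affinity neurotrophin receptor of immature and non-myelinating Schwann cells. Ngfr is also made by pancreatic stellate cells, and S100b by adipocytes. In the neuronal group, Elavl4 (HuD) is an RNA-binding protein of neurons that beta cells also make. Prph is peripherin, an intermediate filament of peripheral neurons, Tubb3 is a neuronal beta-tubulin, and Stmn2 is a microtubule regulator of growth cones.

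The libraries were made from C57Bl/6 mice with TempO-Seq, in which pairs of short detector oligonucleotides are ligated on their target RNA and the ligated probes are counted by sequencing. Dams received the dioxin TCDD, an agonist of the aryl hydrocarbon receptor, at 20 ng/kg per day, or corn oil as the control, by subcutaneous injection from before mating to birth. Pups were not injected themselves, and their exposure was through the dam. The 22 libraries were labelled TCDD dam (4), TCDD female pup (4), TCDD male pup (4), control dam (4), control female pup (3) and control male pup (3), all collected on the day of birth. The age of the dams is not given in the labels. Libraries are named below by these labels and the number in their titles.

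The stage labels conflicted with stage genes, so the genes were described over 2 classes of library. A library was of newborn type where the summed count of Afp, a fetal plasma protein, exceeded that of Pnlip, the pancreatic triglyceride lipase, and of adult type otherwise. The adult type held 8 libraries, 4 labelled dam and 4 labelled pup, and 6 of the 8 carried the TCDD label. The newborn type held 14 libraries, 4 labelled dam and 10 labelled pup, and 6 of the 14 carried the TCDD label. The class went against the stage label in 8 of 22 libraries. Whether the treatment labels and the numbers in the titles are right was not tested. Each treatment result below therefore holds for the labels, and each grouping by number for the titles. Total counts were 14068304 to 19148777 in the adult type and 11223816 to 34911410 in the newborn type. Counts-per-million (CPM) are relative to that total and summed over the probes of a gene. A floor of 3 counts stood at 0.157 to 0.213 CPM in the adult type and 0.0859 to 0.267 CPM in the newborn type. Probes differ in efficiency, so levels are compared between libraries and never between genes. Pancreas markers were present in both classes: the 13 measured genes of the acinar list summed to 433648 to 484963 CPM in the adult type and 221016 to 284941 CPM in the newborn type.

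Promoter sequences were held for 5 of the 7 genes in a RefSeq table of the GRCm38.p6 build. The 150 bases before the transcription start are shown for 2 neuronal genes that varied together across libraries (Prph and Tubb3) and 2 glial genes that did not. Capitals mark a TATA box (TATAAA) or an E-box (CANNTG), searched on both strands. GC boxes (GGGCGG) were searched as well and are left in lower case.
S100b, chr10:76253686-76253835, + strand: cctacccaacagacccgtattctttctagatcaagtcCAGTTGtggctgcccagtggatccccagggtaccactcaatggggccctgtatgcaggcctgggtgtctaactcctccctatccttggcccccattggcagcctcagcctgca
Ngfr, chr11:95587699-95587848, - strand: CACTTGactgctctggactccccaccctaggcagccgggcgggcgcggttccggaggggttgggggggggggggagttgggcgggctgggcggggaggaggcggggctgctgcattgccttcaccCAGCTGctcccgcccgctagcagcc
Prph, chr15:99055024-99055173, + strand: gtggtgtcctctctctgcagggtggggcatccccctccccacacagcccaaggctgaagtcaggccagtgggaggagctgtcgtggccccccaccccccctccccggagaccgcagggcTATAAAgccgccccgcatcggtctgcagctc
Tubb3, chr8:123411403-123411552, + strand: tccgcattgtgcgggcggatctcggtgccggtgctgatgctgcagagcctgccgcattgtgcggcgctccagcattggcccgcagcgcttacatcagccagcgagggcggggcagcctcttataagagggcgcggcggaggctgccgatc
Prph was the gene with a TATA box, at position -31 from the start, and it had 1 GC box. The Tubb3 window held neither a TATA box nor an E-box and had 2 GC boxes. Ngfr had 2 E-boxes, at -150 and -25, and 4 GC boxes, and S100b had 1 E-box at -113. The SOX-type letters ACAAAG were found in 0 of these windows. Of all 32851 windows of this length, 7.57% held TATAAA, 47.7% CANNTG, 28.6% GGGCGG and 9.88% ACAAAG. Elavl4 had 4 listed starts, of which the first had neither TATAAA nor CANNTG. A match is a description of the letters and not of binding.

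All 3 glial genes were near the floor in the adult type and measurable in every newborn-type library. Sox10 had 0, 0 and 0.119 CPM (lowest, median and highest) in the adult type, with 6 of 8 libraries at 0, against 0.293, 1.35 and 2.94 CPM in the newborn type. S100b had 0, 0.0306 and 0.407 CPM in the adult type, against 1.57, 2.43 and 3.75 CPM in the newborn type. Ngfr had 0, 0.0588 and 0.284 CPM in the adult type, against 2.61, 4.70 and 8.81 CPM in the newborn type. The classes did not overlap for any of these 3 genes. Summed over libraries, Sox10 had 3 counts in the adult type and 342 in the newborn type. Scaled to the class totals, the newborn type had 64.7 times as much, with a 95% exact counting interval of 21.96 to 315. The same ratio, newborn over adult type, was 26.7 (15.2 to 52.03) for S100b and 53.3 (31.1 to 100.4) for Ngfr. Single libraries decided part of this. Without TCDD dam 11, which held 2 of the 3 adult-type Sox10 counts, its ratio was 169, and without TCDD male pup 8, which held 7 of the 12 adult-type S100b counts, that of S100b was 55.8. These intervals cover counting error only. In bulk tissue, fewer cells of a type and less RNA per cell cannot be told apart.

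The neuronal genes showed the same order of classes, with Prph as the exception to a clean separation. Stmn2 had 0.426, 0.939 and 3.49 CPM (lowest, median and highest) in the adult type, against 14.3, 27.3 and 75.8 CPM in the newborn type. It was the member with a count in all 8 adult-type libraries. Elavl4 had 0, 0.301 and 1.28 CPM in the adult type, against 7.91, 13.3 and 23.9 CPM in the newborn type. Tubb3 had 0, 0.176 and 0.640 CPM in the adult type, against 1.30, 5.71 and 43.5 CPM in the newborn type. The classes did not overlap for Stmn2, Elavl4 or Tubb3. Prph had 0, 0 and 0.177 CPM in the adult type, against 0.0673, 0.484 and 1.89 CPM in the newborn type, and the ranges overlapped. The lowest newborn-type value of Prph, in the library labelled control male pup 4, was 1 count. The newborn over adult ratio of pooled counts was 31.8 (27.2 to 37.5) for Stmn2, 36.04 (27.6 to 48.1) for Elavl4, 73.8 (50.3 to 113) for Tubb3 and 18.4 (7.72 to 57.4) for Prph. Without control dam 4, which held 1519 of the 3379 newborn-type Tubb3 counts, the Tubb3 ratio was 47.8. Without TCDD female pup 6, which held 3 of the 5 adult-type Prph counts, the Prph ratio was 40.1.

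**Figure D1:**
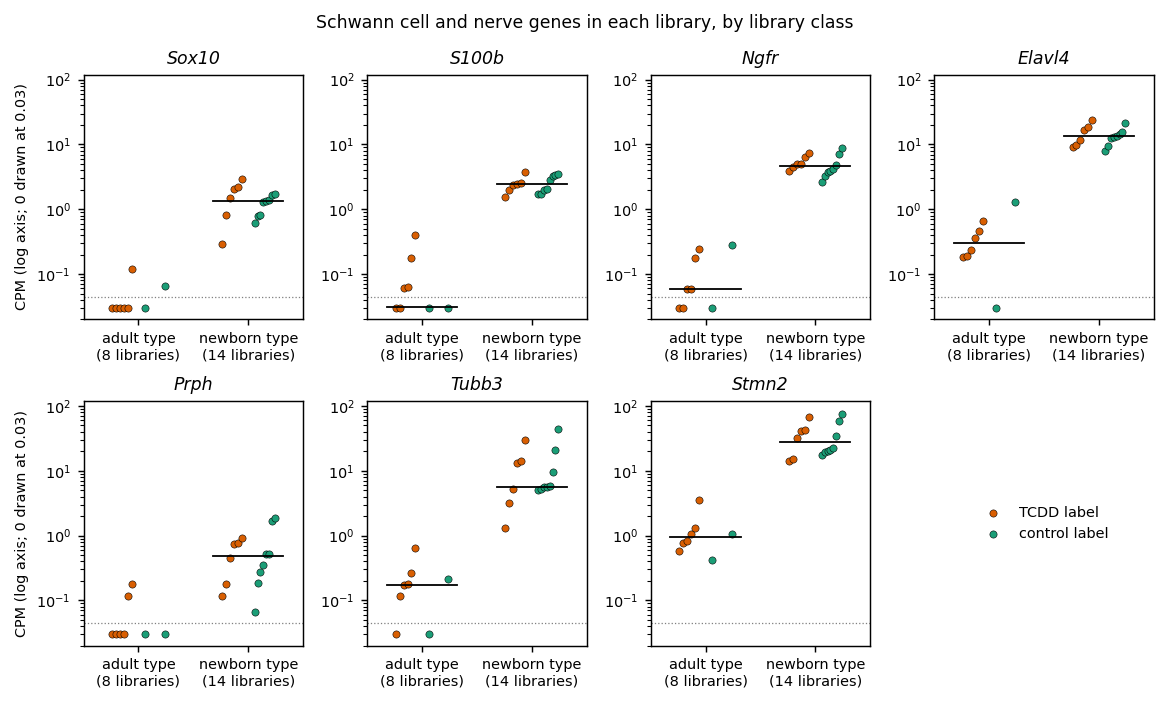
CPM of each of the 7 genes (log axis, values of 0 drawn at 0.03 below the dotted line) in every library, in 8 adult-type and 14 newborn-type libraries. Points are libraries, coloured by the TCDD or control label, and bars are class medians above 0. Adult-type points lie below all newborn-type points except for Prph.

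Most other genes of the panel lay the same way on this scale, and the members' counts are to be read against that. Of the 11 member probes, 10 had adult-type values below every newborn-type value. The same held for 69.7% of the 16143 probes that averaged 10 counts or more per library, and 0.421% lay the other way. Only 9 of the 11 member probes, from 6 genes, passed that minimum, and the probes of Prph and S100b_32122 did not. Over all probes with a count, 39.3% lay lower in the adult type and 0.235% higher. The sizes of the differences follow, with those of all genes beside them. The log2 ratio of class means, adult over newborn type, was -5.93 for Tubb3, -5.92 for Sox10, -5.61 for Ngfr, -5.07 for Elavl4, -4.86 for Stmn2, -4.83 for S100b and -4.07 for Prph. The median over 11679 genes was -1.92, with quartiles of -2.64 and -1.40. A ratio of -4.07 or lower was found in 7.72% of genes.

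The scaling moved these values. With TMM factors, which were 0.363 to 0.593 in the adult type and 1.19 to 1.83 in the newborn type, the median over all genes was -0.12 on the log2 scale. The members then lay between -4.18 for Tubb3 and -2.48 for Prph, and 6.52% of genes lay at -2.48 or lower. Relative to the median of all genes, Tubb3 was at -4.00 on the CPM scale and -4.06 with TMM, and Prph at -2.14 and -2.36. On the TMM scale the classes stayed apart for 4 of 11 member probes, both of Elavl4, that of Ngfr and 1 of Stmn2. This compares with 13.2% lower and 7.75% higher of the 16143 probes that averaged 10 counts or more over all 22 libraries. These 4 passed that minimum through their newborn-type counts. In an adult-type library the Ngfr probe had at most 4 counts, those of Elavl4 at most 7 and 11, and that of Stmn2 at most 21. The minimum thus favours the difference that is described. On the CPM scale the acinar list, which took the share of counts given above, was higher in the adult type without overlap in 10 of 13 genes. It was lower in 1. Over all 21450 genes on that scale, 0.275% lay higher and 40.1% lower. The list includes Pnlip, which defines the classes, so the separation of that gene was fixed by the rule. The part of the acinar genes in these differences was not tested.

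Other genes of nerve and glia were counted in lists drawn up with earlier results of these data known. The list of Schwann cell and glial genes summed to 21.7 to 47.8 CPM over 24 genes in the adult type and 126 to 203 CPM in the newborn type. Of the 24, 10 were lower in the adult type without overlap and 14 overlapped, against 40.1% lower and 0.275% higher over all 21450 genes of the panel, the background for the other lists as well. The share of the glial list was near that background. Its most abundant gene was Mbp, a myelin protein, with 15.6 to 32.7 CPM in the adult type and 53.8 to 81.1 CPM in the newborn type. Next came Cnp, an enzyme of myelinating glia, with 2.98 to 8.61 CPM in the adult type and 15.2 to 22.6 CPM in the newborn type. The log2 ratio of class means, adult over newborn type, was -1.71 for Mbp and -1.70 for Cnp, near the -1.92 of all genes. Fabp7, a fatty acid carrier of Schwann cell precursors, had 0 to 0.523 CPM in the adult type and 5.63 to 24.3 CPM in the newborn type. Gap43, a growth-cone protein also made by Schwann cells, had 0 to 0.256 CPM in the adult type and 15.5 to 61.4 CPM in the newborn type. Erbb3, the neuregulin receptor of Schwann cells, had 1.15 to 4.602 CPM in the adult type and 5.86 to 15.6 CPM in the newborn type. Egr2, a factor of myelination, reached 0.448 CPM in the adult type and 0.673 CPM in the newborn type. Gfap reached 0.174 CPM in the adult type and 0.224 CPM in the newborn type.

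The list of peripheral and enteric neuron genes summed to 11.7 to 19.1 CPM over 35 genes in the adult type and 105 to 222 CPM in the newborn type. Of the 35, 12 were lower in the adult type without overlap and 23 overlapped, a share under the 40.1% of the panel. Map2, a microtubule protein of neurons, was the most abundant and made up most of the adult-type sum. It had 6.24 to 12.5 CPM in the adult type and 23.03 to 33.95 CPM in the newborn type, a log2 ratio of class means of -1.44, less than the -1.92 of all genes. Hand2, a factor of sympathetic and enteric neurons, had 0 to 0.885 CPM in the adult type and 9.96 to 21.9 CPM in the newborn type. Dcx, a microtubule protein of migrating neurons, had 0.157 to 1.34 CPM in the adult type and 16.003 to 31.5 CPM in the newborn type. Ret, the receptor for ligands of the GDNF family, had 0.256 to 1.07 CPM in the adult type and 6.44 to 12.7 CPM in the newborn type. Chat, which makes acetylcholine, reached 0.233 CPM in the adult type and 0.311 CPM in the newborn type.

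Among 25 neurotrophic ligands and receptors, 15 were lower in the adult type without overlap and 10 overlapped. Their sums were 42.5 to 63.5 CPM in the adult type and 200 to 313 CPM in the newborn type. Bdnf, a ligand of the receptor made by Ngfr, had 0 to 0.306 CPM in the adult type and 0.685 to 2.80 CPM in the newborn type. Ntf3 had 0.192 to 1.16 CPM in the adult type and 0.117 to 1.79 CPM in the newborn type, and the classes overlapped. Nrg1, the ligand of Erbb3 in Schwann cells, had 0 to 0.284 CPM in the adult type and 0.934 to 2.83 CPM in the newborn type. Bex3, which binds the Ngfr receptor, had 11.03 to 18.1 CPM in the adult type and 71.8 to 122 CPM in the newborn type. Maged1 had 9.30 to 16.5 CPM in the adult type and 38.8 to 73.6 CPM in the newborn type. Sort1 had 10.1 to 19.8 CPM in the adult type and 30.8 to 48.1 CPM in the newborn type. Its log2 ratio of class means was -1.38, less than the -1.92 of all genes. Nrp1 had 0.366 to 5.43 CPM in the adult type and 5.36 to 22.6 CPM in the newborn type, so the classes overlapped.

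Of the other cell types that share these genes, endocrine and mesenchymal markers separated the classes in nearly all listed genes. Melanocyte and adipocyte genes mostly overlapped. The 19 measured endocrine genes summed to 116 to 407 CPM in the adult type and 1387 to 2689 CPM in the newborn type, and 18 of 19 were lower in the adult type without overlap. The 12 stellate and mesenchymal genes summed to 59.0 to 128 CPM in the adult type and 1744 to 2756 CPM in the newborn type, and 12 of 12 were lower. Melanocyte genes, of a lineage that also uses Sox10 and S100b, summed to 2.69 to 5.79 CPM in the adult type and 5.33 to 12.7 CPM in the newborn type. Most of that was Mitf, with a log2 ratio of class means of -1.02, less than the -1.92 of all genes. All 7 melanocyte genes overlapped between the classes. Pmel, Tyr, Dct and Mlana reached at most 0.597 CPM in any library. Tyrp1 reached 0.416 CPM in the adult type and 1.12 CPM in the newborn type. The adipocyte gene Adipoq had 0 to 17.3 CPM in the adult type and 0 to 0.298 CPM in the newborn type, and 7 of the 8 adipocyte genes overlapped between classes. The sign of the difference on the CPM scale was not the same for all adipocyte genes. The log2 ratio of class means, adult over newborn type, was 6.38 for Adipoq and 4.16 for Plin1. It was -0.96 for Fabp4 and -1.53 for Lpl, which had the highest median CPM of the list. Each of these ratios lay above the -1.92 median of all genes. Lpl had 1.15 to 2.61 CPM in the adult type and 3.58 to 7.49 CPM in the newborn type. The part of these cell types in the levels of the 7 genes was not tested.

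**Figure D2:**
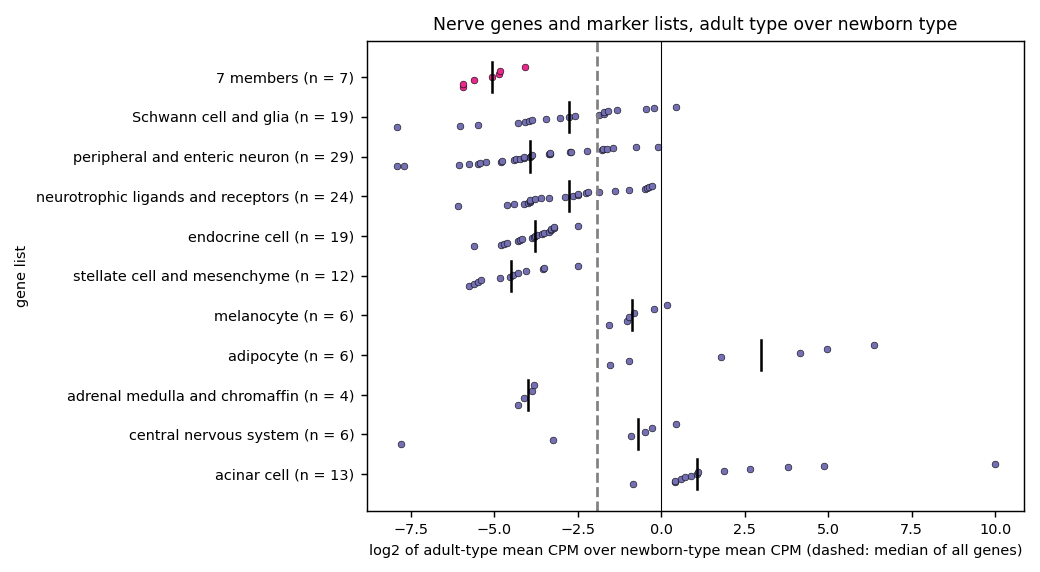
Log2 of adult-type mean CPM over newborn-type mean CPM for the 7 genes (top row) and for the genes of 10 marker lists with at least 1 pooled count in the adult type and 10 in the newborn type. Each point is a gene, short bars are list medians and the dashed line is the median of all genes, -1.92. The 7 genes lie between -5.93 and -4.07.

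Within the newborn type the genes differed in how much they varied. Tubb3 spanned 33.4-fold between its lowest and highest library and Prph 28.1-fold, while Sox10 spanned 10.03-fold and Stmn2 5.28-fold. Ngfr spanned 3.38-fold, Elavl4 3.02-fold and S100b 2.38-fold. Sox10 and Prph rested on few reads, with as few as 5 counts and 1 count in a library, whereas Tubb3 had 22 to 1519 and Stmn2 199 to 2646. Tubb3 was highest in the libraries labelled control dam 4 (43.5 CPM), TCDD male pup 6 (30.01 CPM) and control female pup 4 (21.2 CPM). Next were TCDD female pup 8 (14.01 CPM), TCDD dam 6 (13.3 CPM) and control male pup 4 (9.49 CPM). The following 6 libraries lay between 5.08 and 5.73 CPM, and TCDD dam 10 and TCDD female pup 10 were lowest, at 3.16 and 1.30 CPM. The highest values occurred under both treatment labels and both stage labels, whereas the 2 lowest were labelled TCDD.

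The order went with the number in the titles, which by the study's design marks a dam and her litter, a pattern noticed after the values were seen. Numbers 2 and 4 each had 3 newborn-type libraries, although the design gives 1 male and 1 female pup per litter. Whether the numbers mark true litters was not tested. For Tubb3, the 3 libraries numbered 4 had 9.49 to 43.5 CPM and the 2 numbered 6 had 13.3 to 30.01 CPM. Those numbered 2 had 5.08 to 5.68 CPM, those numbered 7 had 5.68 to 5.73 CPM, and those numbered 10 had 1.30 to 3.16 CPM. Stmn2 had 34.4 to 75.8 CPM in number 4 and 42.1 to 66.4 CPM in number 6, against 17.7 to 21.3, 19.8 to 22.1 and 14.3 to 15.4 CPM in numbers 2, 7 and 10. Prph did so less closely, since number 4 held both its highest value and its lowest, 1.89 and 0.0673 CPM. Libraries that share a number thus lay in the same part of the range for Tubb3 and Stmn2, and p-values that count them as separate may be too small.

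Stmn2 followed Tubb3. It was also highest in control dam 4, TCDD male pup 6 and control female pup 4, at 75.8, 66.4 and 59.2 CPM, and the other newborn-type libraries had at most 42.1 CPM. Prph was highest in the same 3 libraries, at 1.69, 0.909 and 1.89 CPM. Elavl4 was highest in TCDD male pup 6 (23.9 CPM), control dam 4 (21.6 CPM) and TCDD female pup 8 (18.6 CPM). The glial genes had other leaders. Sox10 was highest in TCDD female pup 8 at 2.94 CPM, Ngfr in control male pup 4 at 8.81 CPM, and S100b in TCDD dam 10 at 3.75 CPM, where Sox10 was lowest at 0.293 CPM.

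The covariation was measured over the 14 newborn-type libraries on log2(CPM + 1), for 21 pairs of genes. Two-sided permutation tests were adjusted over the 21 pairs (Benjamini-Hochberg), and 9 pairs passed 0.05 by Pearson's r. All 6 pairs among the neuronal genes were positive and passed. Tubb3 and Stmn2 had r = 0.95 and rho = 0.93 (permutation p = 1e-05 for both, the smallest that 100000 permutations can give, adjusted p = 0.00021), and r = 0.91 without the 2 libraries farthest from the median of Tubb3. Elavl4 and Tubb3 had r = 0.86 and rho = 0.84 (permutation p = 7e-05 and 0.00021, adjusted p = 0.000735 and 0.0022), and 0.90 without the 2 farthest. Prph and Tubb3 had r = 0.81 and rho = 0.71 (permutation p = 0.00039 and 0.00603, adjusted p = 0.00205 and 0.0149), and 0.70 without the 2 farthest. The other 3 neuronal pairs had r of 0.68 to 0.81. Among the 10 newborn-type libraries labelled pup, 3 pairs passed. With the libraries of each number averaged, which leaves 7 means and was added after the data were seen, 3 pairs passed by an exact permutation test adjusted over the 21. These were Prph with Tubb3 (r = 0.95, exact p = 0.00179, adjusted p = 0.0208), Tubb3 with Stmn2 (r = 0.94, exact p = 0.00198, adjusted p = 0.0208) and Prph with Stmn2 (r = 0.94, exact p = 0.00377, adjusted p = 0.0264). By rho all 3 had 0.89 and missed the threshold (exact p = 0.0123, adjusted p = 0.0861). The 3 pairs of Elavl4 with other neuronal genes had r of 0.83 to 0.91 and did not pass.

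Among the glial genes the pairs did not move alike. Sox10 and Ngfr had r = 0.59 (permutation p = 0.0259, adjusted p = 0.0544) and rho = 0.72 (permutation p = 0.00464, adjusted p = 0.0149), and r = 0.72 without the 2 libraries farthest from the median of Sox10. S100b was negatively related to every other member. Its r was -0.71 with Elavl4, -0.71 with Stmn2 and -0.64 with Tubb3, with rho of -0.77, -0.67 and -0.72. For r the permutation p was 0.00496, 0.00525 and 0.0131. The adjusted permutation p was 0.0157, 0.0157 and 0.0306 for r and 0.0113, 0.0209 and 0.0149 for rho, and without the 2 libraries farthest in S100b, r was -0.72, -0.67 and -0.60. With Sox10, S100b had r = -0.56 (permutation p = 0.036, adjusted p = 0.0631) and rho = -0.57 (permutation p = 0.037, adjusted p = 0.0647), and r was -0.25 without the 2 farthest. With Ngfr, S100b had r = -0.58 (permutation p = 0.03, adjusted p = 0.0573), and r was -0.62 without the 2 farthest. By rho that pair passed, at -0.61 (permutation p = 0.0233, adjusted p = 0.0445). The calls of S100b by r, with Elavl4, Stmn2 and Tubb3, did not hold under other settings. On the TMM scale r was -0.57, -0.57 and -0.50 with Elavl4, Stmn2 and Tubb3 (adjusted permutation p = 0.0776, 0.0776 and 0.116). Among pups r was -0.73, -0.60 and -0.53 (adjusted permutation p = 0.0758, 0.204 and 0.247), and over the 7 means per number -0.81, -0.84 and -0.83 (adjusted exact permutation p = 0.0977, 0.0798 and 0.0798). Without control dam 4 the call with Tubb3 was also lost (r = -0.58, adjusted permutation p = 0.0827). The relation of S100b with the neuronal genes rested on 1 of its 2 probes, a check added after the data were seen. S100b_63543 had r of -0.79, -0.74 and -0.78 with Elavl4, Tubb3 and Stmn2. S100b_32122, with 4 to 30 counts in a newborn-type library, had -0.22, -0.17 and -0.24. The 2 S100b probes had r = 0.22 with each other, whereas the probe pairs of Elavl4, Tubb3 and Stmn2 had 0.95, 0.96 and 0.94.

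**Figure D3:**
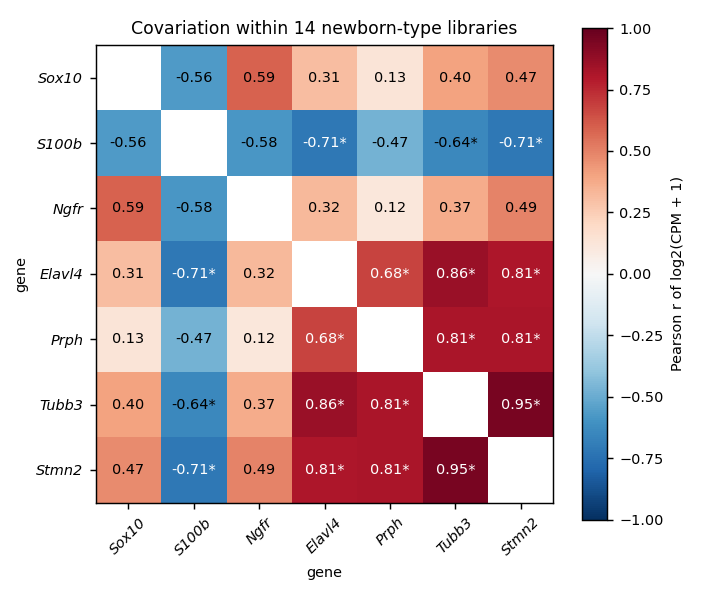
Pearson r of log2(CPM + 1) between the 7 genes over the 14 newborn-type libraries, with red for positive and blue for negative values. An asterisk marks an adjusted permutation p under 0.05 over the 21 pairs, with libraries that share a number counted as separate. The 4 neuronal genes form a positive block with r of 0.68 to 0.95, and S100b is negative throughout.

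The 7 genes were also set against the sum of the endocrine list, the sum of the stellate and mesenchymal list and the total count, which made 21 relations. By permutation, 0 of these passed adjustment. The lowest adjusted permutation p was 0.182, for Prph with the endocrine sum (r = -0.69, permutation p = 0.00869; rho = -0.23, permutation p = 0.437), and r was 0.06 without the 2 libraries farthest in that sum. Library depth had r of 0.39 with Tubb3 and 0.43 with Stmn2 (rho 0.18 and 0.26), with an adjusted permutation p of 0.474 for both r, and r of -0.21 and -0.07 without the 2 farthest libraries. With Sox10, depth had r = 0.38 and rho = 0.56 (permutation p = 0.188 and 0.0379, adjusted p = 0.474 and 0.659). With Ngfr it had r = 0.44 and rho = 0.45 (permutation p = 0.114 and 0.108, adjusted p = 0.474 and 0.659). Without the 2 farthest libraries, r was 0.49 for Sox10 and 0.38 for Ngfr.

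Several neuron-list genes, Th, Dbh and Npy among them, had the same leading libraries as Tubb3, a pattern noticed after their values were seen. Of those 3 libraries, 2 share the number 4. The 3 highest libraries of Tubb3 were also the 3 highest for 9 of the 23 neuron-list genes that averaged 10 counts or more in the newborn type, or 39.1%. The share was 0.353% over 12198 genes, and the count was 0 of 18 endocrine and 0 of 12 mesenchymal genes. The 9 were Elavl2, Nefm, Uchl1, Gap43, Chrna3, Th, Dbh, Npy and Tubb2b. Th, the rate-limiting enzyme of catecholamine synthesis, had 10.1, 9.70 and 8.09 CPM in control dam 4, TCDD male pup 6 and control female pup 4, and at most 4.72 CPM in the other newborn-type libraries. Npy, a cotransmitter of sympathetic neurons, had 17.4, 13.1 and 9.53 CPM there and at most 4.21 CPM elsewhere in the newborn type. Dbh, which makes noradrenaline from dopamine, had 3.70, 2.12 and 1.66 CPM there. Its next highest library had 1.42 CPM. Chrna3, the nicotinic receptor subunit of autonomic ganglia, had 10.03, 9.09 and 6.58 CPM there, and the other newborn-type libraries had at most 4.93 CPM. Pnmt, which marks adrenaline-making chromaffin cells, reached 0.378 CPM in any newborn-type library. Chga, made by chromaffin and endocrine cells, had 46.5, 59.5 and 38.6 CPM in those 3 libraries, within its newborn-type range of 38.6 to 82.8 CPM. How much ganglion or nerve tissue a dissected pancreas held is not recorded in the labels, and its part in these differences was not tested.

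**Figure D4:**
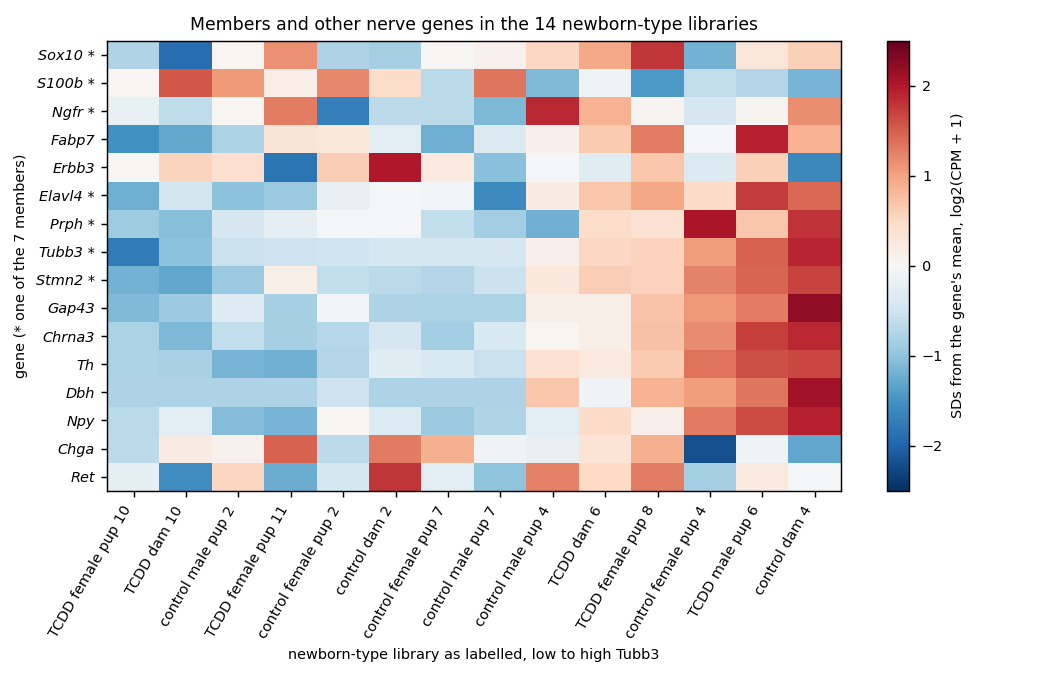
Levels of the 7 genes (asterisk) and 9 other genes in the 14 newborn-type libraries, as SDs from the gene's own mean of log2(CPM + 1). Libraries run from low to high Tubb3. Control female pup 4, TCDD male pup 6 and control dam 4, at the right, are high in Tubb3, Stmn2, Gap43, Chrna3, Th, Dbh and Npy, while Chga and Ret do not follow.

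Of 12192 other genes ranked over the 14 newborn-type libraries, those most like the mean of the 7 standardised members were Sncg (r = 0.94), Kif5c (0.93), Olfm2 (0.92), Eya1 (0.92), PCDHA10 (0.90) and Gng3 (0.89). Sncg, a synuclein of peripheral neurons, had 0 to 0.795 CPM in the adult type and 0.937 to 15.5 CPM in the newborn type. Kif5c, a neuronal kinesin, had 0.640 to 2.26 CPM in the adult type and 1.24 to 6.10 CPM in the newborn type, so the classes overlapped. Most like Stmn2 were Sncg (0.96), Tbx20 (0.93) and Chrna3 (0.93). Most like Sox10 were Rep15 (0.84), Rasl11b (0.83) and Hspd1 (0.81). The highest of many r values over 14 libraries are a ranking, with no p.

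TCDD was compared with control within each labelled group, and 0 member probes passed. In the dams, edgeR's quasi-likelihood test called 0 of 9 member probes tested and 0% of 15594 probes, with 150 of all probes and 0 members at an unadjusted p under 0.05. DESeq2 also called 0 probes. Stmn2 had 14.3, 42.1, 3.49 and 1.31 CPM in TCDD dams 10, 6, 8 and 11, and 20.4, 75.8, 1.04 and 0.426 CPM in control dams 2, 4, 5 and 7. Both groups held 2 newborn-type and 2 adult-type libraries, and they overlapped. Its more abundant probe had a log2 fold change of -0.87 ± 1.11 (SE, n = 4 against 4), which was -0.87 with DESeq2. That of Tubb3 had -1.86 ± 1.57. Without control dam 4 the values were 1.31 for Stmn2 and 1.34 for Tubb3, on the other side of 0, and neither passed.

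In the female pups, 0 of 9 member probes and 0% of 17513 probes passed, with 299 probes and 0 members at an unadjusted p under 0.05. DESeq2 also called 0 probes. Stmn2 had 15.3, 32.5, 40.9 and 1.06 CPM in TCDD female pups 10, 11, 8 and 6, and 21.3, 59.2 and 19.8 CPM in control female pups 2, 4 and 7. Sox10 had 0.830, 2.23, 2.94 and 0 CPM in these TCDD pups, and 0.820, 0.605 and 1.32 CPM in these control pups. The groups overlapped for both genes, and TCDD female pup 6 was of adult type. The log2 fold change of Sox10 was 0.65 ± 0.83 and that of the more abundant Stmn2 probe -0.49 ± 0.70 (SE, n = 4 against 3).

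In the male pups, 0 of 9 member probes and 0% of 16176 probes passed, with 2703 probes and 0 members at an unadjusted p under 0.05. DESeq2 called 490 probes there and 0 members. Stmn2 had 0.576, 0.836, 0.756 and 66.4 CPM in TCDD male pups 10, 11, 8 and 6, and 17.7, 34.4 and 22.1 CPM in control male pups 2, 4 and 7. Ngfr had 0, 0, 0.0581 and 4.93 CPM in these TCDD pups, and 4.90, 8.81 and 3.24 CPM in these control pups. TCDD male pups 10, 11 and 8 were of adult type and all others in the comparison of newborn type. Without TCDD male pup 6, 9 of 9 member probes were called lower in TCDD, against 23.3% of 15379 probes lower and 41.9% in either direction. The treatment labels then split adult from newborn type, so treatment and class cannot be told apart there, and nothing is read from that count.

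Within 1 class the treatment label gave no call among the member probes. Among the newborn type, 6 TCDD against 8 control libraries, edgeR called 0 of 10 member probes and 0% of 17109 probes, with 554 probes and 0 members at an unadjusted p under 0.05, and DESeq2 called 0 probes. Sox10 had 0.293, 1.78 and 2.94 CPM (lowest, median and highest) in TCDD and 0.605, 1.33 and 1.75 CPM in control libraries. Ngfr had 3.87, 4.93 and 7.31 CPM in TCDD and 2.61, 4.00 and 8.81 CPM in control libraries. Tubb3 had 1.30, 9.24 and 30.01 CPM in TCDD and 5.08, 5.71 and 43.5 CPM in control libraries. Stmn2 had 14.3, 36.7 and 66.4 CPM in TCDD and 17.7, 21.7 and 75.8 CPM in control libraries. The treatment labels overlapped for all of these genes. Log2 fold changes were 0.19 ± 0.36 for Sox10, -0.07 ± 0.24 for Ngfr, -0.09 ± 0.23 for both Elavl4 probes and -0.07 ± 0.27 for S100b_63543 (SE). They were -0.63 ± 0.55 for the more abundant Tubb3 probe and -0.20 ± 0.36 for that of Stmn2. For Tubb3 and Stmn2 the median was higher in TCDD although the fold change was negative, and without control dam 4 it was 0.20 for Tubb3 and 0.26 for Stmn2. A missed threshold does not show equal levels.

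Among the adult type, 6 TCDD against 2 control libraries, 1 member probe had enough counts to be tested. The Stmn2_72834 probe had a log2 fold change of 1.16 ± 0.92 and did not pass. Of the 13513 probes in that fit, edgeR called 0% and DESeq2 called 0, and in edgeR 388 lay under 0.05 before adjustment. Without the low-count filter edgeR called 112 of 27621 probes, 34 higher and 78 lower in TCDD, and without control dam 5 it called 2, with 0 members in either. Stmn2 had 0.576, 0.949 and 3.49 CPM (lowest, median and highest) in TCDD and 0.426 and 1.04 CPM in control libraries, so the labels overlapped.

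Stage and sex as labelled gave no call either. Between 8 libraries labelled dam and 14 labelled pup, edgeR called 0 of 11 member probes and 0% of 18539 probes, with 516 probes and 0 members at an unadjusted p under 0.05. DESeq2 called 13 probes and 0 members. The members' log2 fold changes, dam over pup, ran from -0.36 for S100b_63543 to 0.40 for Prph. Without the 8 libraries whose class went against the stage label, 9 of 11 member probes were called lower in dams, against 25.0% lower of 20038 probes and 43.7% in either direction. That subset compares adult with newborn type, the difference the genes were chosen for, so it is no further support. Between 7 libraries labelled male pup and 7 labelled female pup, 0 of 11 member probes and 0% of 17924 probes passed, with 665 probes and 0 members at an unadjusted p under 0.05. DESeq2 called 0 probes there. The members' log2 fold changes, male over female, ran from -1.30 ± 0.72 (SE) for Prph to 0.08 ± 0.82 for Tubb3_65794. Of the 10 marker lists, 0 probes were called in any of the 7 comparisons.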

How the data were processed

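Whole-pancreas RNA was profiled with the TempO-Seq mouse panel on an Illumina NextSeq500, per the labels' protocols. Per the submitters' processing notes, bcl2fastq 2.17.1.14 made the read files. Neither the aligner nor the build is given in the sources used here. The authors deposited raw counts per probe for 30146 probes and 22 libraries, with totals of 11223816 to 34911410 and 0 columns that match no sample. The counts were whole numbers with no normalization. No molecular identifiers are described, so intervals cover counting error only. By the labels each library is 1 animal, and libraries of a group all differed by more than counting noise (chi-square over its degrees of freedom 8.09 or more).

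The 7 genes, the library classes and the 10 marker lists were chosen with earlier results of these data known. All probes of the 7 genes are accounted for. From a list, genes were named mostly from the 6 with the highest median CPM, besides defining markers near 0. Bdnf, Ntf3 and Nrg1 lay outside those 6 and were named as ligands. Genes that shared the leading libraries of Tubb3 were named whatever their level. Some listed genes are not reported here. The planned ratio of class medians was replaced by a ratio of class means, because the adult-type median of 5 genes lay under the 3-count floor. Genes named for their likeness to the members were ranked by Pearson r. Counting intervals for ratios of pooled counts are exact (conditional binomial, 95%).

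Tests were fitted over all probes with edgeR 4.0.16 under R 4.3.3 (low counts removed by filterByExpr, TMM scaling, quasi-likelihood test, Benjamini-Hochberg threshold 0.05), with DESeq2 1.42.0 as an alternative. The fit was tested on simulated data. Fold changes of probes are on the TMM scale, and CPM values use total counts. Correlations used log2(CPM + 1) and 100000 permutations. Other alternatives were library totals for TMM, no low-count filter, counts summed per gene, a pseudocount of 0.25, and leaving out each library. The design text gives 1 male and 1 female pup per litter with their dams, so same numbers were taken as a shared litter. Over the probes kept by filterByExpr, deviations of TMM-scaled log2 CPM from group means correlated from -0.721 to 0.706 between same-numbered libraries. Stage and sex were therefore also fitted with the number as a block, and correlations repeated on means per number.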

Additional observations from a re-analysis of the deposited data

Results flagged for a closer look

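Within groups of 4 libraries, and within the 8 adult-type libraries, single values that stood apart from the rest by Dixon's criterion were collected. Of 35 sets of a gene and a group, 12 held such a value. Chance gives about 1 in 20 among like libraries with normally distributed values. That rate does not apply where a labelled group mixes adult and newborn type. It does not apply either to adult-type values of a few counts, many of them at 0. The library labelled TCDD male pup 6, the newborn-type library among 4 labelled TCDD male pup, held 6 of them. Its Sox10 was 1.52 CPM with the other 3 at 0, its Ngfr 4.93 CPM with the others up to 0.0581 CPM, and its Elavl4 23.9 CPM with the others up to 0.465 CPM. Its Prph was 0.909 CPM with the others at 0, its Tubb3 30.01 CPM with the others up to 0.640 CPM, and its Stmn2 66.4 CPM with the others up to 0.836 CPM. The other 3 libraries of that label were of adult type.

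Among 4 libraries labelled TCDD dam, TCDD dam 6 had 2.05 CPM of Sox10 with the others up to 0.293 CPM, and 0.775 CPM of Prph with the others up to 0.119 CPM. Among 4 labelled control dam, control dam 4 had 43.5 CPM of Tubb3 with the others up to 5.68 CPM. In the adult type, S100b stood at 0.407 CPM in TCDD male pup 8 (others up to 0.178 CPM) and Tubb3 at 0.640 CPM in TCDD male pup 10 (others up to 0.261 CPM). Stmn2 stood at 3.49 CPM in TCDD dam 8 (others up to 1.31 CPM). The S100b value was 7 counts and the Tubb3 value 10 counts.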

How the results depend on the processing

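The counts of called member probes were 0 in the TCDD comparisons of dams and female pups, in the TCDD label within each class, and in male against female pups, under every alternative tried for them. In male pups, leaving out each library in turn gave 0 to 9 called, with 9 without TCDD male pup 6. Dams against pups gave 9 called without the libraries whose class went against the stage label. With the replicate block (the number in the titles), dams against pups and male against female pups both gave 0 called member probes, as without it. Same-numbered libraries had correlated deviations above 0.1 in 0 of 7 pairs of male and female pups, 1 of 7 of dams and female pups and 4 of 7 of dams and male pups. These deviations were from label-group means, and where a group mixed adult and newborn type they also carry the class. Number 6 gave 0.706 for dam and male pup, both of newborn type, and -0.615 for that dam and the adult-type female pup. A shared number and a shared class cannot be told apart there. The number of member probes lower in the adult type without overlap was 4 on the TMM scale and 6 for the most abundant probe of each gene, out of 7. Correlated pairs of members numbered 9 with a pseudocount of 0.25, 6 on the TMM scale, 7 without control dam 4, 3 among pups and 3 with means per number in the titles. Reversed signs were confined to values that passed no test. For TCDD over control in the newborn type, library totals in place of TMM gave 0.051 for S100b, 0.14 for Ngfr, 0.13 for Elavl4 and 0.084 for Stmn2. Leaving out each library gave -0.049 to 0.40 for Sox10, -0.31 to 0.068 for S100b, -0.18 to 0.13 for Ngfr, -0.26 to 0.15 for Elavl4, -1.09 to 0.20 for Tubb3 and -0.44 to 0.26 for Stmn2. Sox10 and Prph had r = -0.22 among pups. Ngfr and Prph had r = -0.20 among pups and -0.074 without control dam 4. The cause was not tested. Depth limits Sox10, S100b and Prph most, which had 3, 12 and 5 counts in all adult-type libraries together.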
